A study of Mus musculus with 49 samples.

Results

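The albumin gene family is described here across all 16 conditions of the study. Its 4 members, Alb, Afp, Gc and Afm, were chosen as the rows of the deposited count table whose Ensembl identifiers carry these symbols, and all 4 were found among its 46078 rows. They encode related carrier proteins that hepatocytes secrete into blood. Albumin (Alb) is the main protein of plasma and carries fatty acids and bilirubin. α-Fetoprotein (Afp) is its counterpart before birth, made by yolk sac and fetal liver and silenced in the liver after birth. Vitamin D-binding protein (Gc) transports vitamin D metabolites and binds actin released from damaged cells, and afamin (Afm) binds vitamin E and Wnt proteins. In the adult liver, Alb is among the genes that define a mature hepatocyte, and renewed Afp expression is known from regenerating liver and hepatocellular tumors.

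All 4 genes lie on mouse chromosome 5 (GRCm38, GENCODE M21). Gc (ENSMUSG00000035540) spans 89417522 to 89457898 on the minus strand. Alb (ENSMUSG00000029368, 90460897 to 90476602), Afp (ENSMUSG00000054932, 90490737 to 90508907) and Afm (ENSMUSG00000029369, 90518932 to 90553543) follow each other on the plus strand. The gap between Alb and Afp is 14134 bases and that between Afp and Afm is 10024 bases, whereas 1002998 bases separate Gc from Alb.

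The promoters of all 4 members were available from RefSeq (GRCm38.p6), as 250 bases before and 50 bases after the RefSeq start of each gene. That start is the same as in GENCODE for Gc, but lies upstream of the GENCODE start for Alb and Afp and downstream of it for Afm, and motif positions are counted from the RefSeq start. They are shown so that the start regions of members with different patterns can be compared, and capitals mark CCAAT or, read on the other strand, ATTGG. This motif, the core of a common promoter element, occurs in each of the 4 windows and, on either strand, in 37.4% of the 32851 promoters of the same length.
Alb, chr5:90460620-90460919, plus strand: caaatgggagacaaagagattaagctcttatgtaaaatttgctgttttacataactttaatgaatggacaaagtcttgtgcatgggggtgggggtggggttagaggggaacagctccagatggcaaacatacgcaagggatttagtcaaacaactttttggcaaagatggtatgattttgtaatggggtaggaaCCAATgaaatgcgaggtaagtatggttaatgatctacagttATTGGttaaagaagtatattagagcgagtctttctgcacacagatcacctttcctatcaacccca
Afp, chr5:90490464-90490763, plus strand: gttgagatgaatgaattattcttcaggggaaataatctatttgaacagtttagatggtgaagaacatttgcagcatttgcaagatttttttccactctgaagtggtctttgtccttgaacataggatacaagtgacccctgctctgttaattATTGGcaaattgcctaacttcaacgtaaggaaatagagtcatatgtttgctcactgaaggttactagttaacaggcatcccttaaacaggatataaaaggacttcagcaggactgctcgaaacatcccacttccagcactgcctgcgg
Gc, chr5:89457849-89458148, minus strand: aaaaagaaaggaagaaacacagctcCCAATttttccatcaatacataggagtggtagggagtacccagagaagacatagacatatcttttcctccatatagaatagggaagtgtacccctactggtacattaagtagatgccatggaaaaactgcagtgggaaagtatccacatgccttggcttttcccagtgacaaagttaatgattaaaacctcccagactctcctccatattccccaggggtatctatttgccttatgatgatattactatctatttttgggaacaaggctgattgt
Afm, chr5:90518699-90518998, plus strand: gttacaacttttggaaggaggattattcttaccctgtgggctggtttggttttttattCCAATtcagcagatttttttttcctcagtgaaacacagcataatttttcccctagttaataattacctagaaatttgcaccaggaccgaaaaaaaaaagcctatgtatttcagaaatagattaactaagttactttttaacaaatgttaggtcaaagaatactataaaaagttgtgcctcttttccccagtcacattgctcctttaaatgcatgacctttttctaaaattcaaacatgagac
In Alb the motif begins at -56 from the start and, on the other strand, at -15. In Afp it begins at -98 on the other strand, in Gc at -225 and in Afm at -192. AGGTCA, a half-site of nuclear receptors such as Hnf4α, was found only in Afm among the 4 windows, against 16.3% of all promoters. TGTTTAC, a core of the Foxa site, was in none of the 4 and in 3.65% of all promoters. TATAAA, a core of the TATA box, was in Afp and Afm and in 13.6% of all promoters. These are matches of letters, and binding was not measured.

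The cells came from C57BL/6J wild-type mice. Hepatocytes of male mice of 10 weeks were sampled fresh (FH) and after 3 h, 1, 2, 4, 7 and 14 d in monolayer culture with EGF (n = 3 each), or after 7 d with 0.3 µM verteporfin, an inhibitor of Yap activity, or its solvent DMSO (n = 2 each). Dedifferentiated hepatocytes (dediHeps, n = 5), the expandable cells that arise in such cultures, were also grown as aggregates without attachment (n = 3), as spherical organoids in Matrigel (dediHep-SOs, n = 3) and, after forced expression of Cdx2, as budding organoids (dediHep-BOs, n = 3). Chemically induced liver progenitors (CLiPs, n = 3) are hepatocytes dedifferentiated with small molecules. Spherical organoids of fetal intestinal progenitor cells from E13.5 embryos (FIPC-SOs, n = 3) and budding organoids of intestinal stem cells from adult crypts (ISC-BOs, n = 4) were the intestinal controls. Nothing in the labels says that replicates came from separate animals, so p-values measure the spread between these libraries, which may in part be technical. Sample codes show that the aggregates were made from dediHep cultures 1, 2 and 4 and the dediHep-SOs from cultures 1, 3 and 2.

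Library totals ran from 861047 to 3872936 counts, and 3 counts in a library equal 0.775 to 3.48 CPM, the count scaled to a common library total. The 10 hepatocyte markers (such as Cps1 and Fgb) summed to 19433 to 22403 CPM in FHs, 376 to 1641 in dediHeps, 4505 to 6306 in aggregates and 45.7 to 71.7 in dediHep-SOs, where 5 of the 10 had no count although the label of the cells is hepatocyte. They summed to 676 to 986 CPM in dediHep-BOs, 896 to 1379 in ISC-BOs and 166 to 335 in FIPC-SOs. The sum was thus not particular to hepatic cells, and dediHep-BOs and ISC-BOs lay within the range of dediHeps. The 10 intestinal markers (such as Vil1 and Cdx2) summed to 157 to 222 CPM in FHs, with 7 of 10 at 0, and to 3119 to 3918 in dediHep-BOs. Markers of endothelial, macrophage and stellate cells summed to 198 to 375 CPM in FHs, with none of 12 at 0, and to 0.302 to 1.68 in dediHeps, with 7 of 12 at 0. The part of these other cells in the results below was not tested, and in bulk RNA fewer cells with a transcript and less transcript per cell cannot be told apart.

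Counts of Alb were limited by the assay. Molecules were told apart by unique molecular identifiers (UMIs), and the highest count of any gene in any library equalled the number of distinct sequences of 6 bases. In FHs Alb had 3607, 3733 and 3771 counts, or 88.1 to 92.1% of these sequences. At 3 h it had 3844 to 4004 and at 1 d 3602 to 3967. Aggregates had 3725, 3834 and 3816. Gc also used 42.0 to 75.0% of the sequences in FHs, 78.2 to 82.6% at 3 h and up to 90.4% in CLiPs, whereas Afm stayed under 33.4% and Afp under 10.0% in every library. Near the limit the count hardly rises with the number of transcripts, so that CPM of Alb understates its level in these groups, and the more so in deeper libraries. Values from counts corrected for the limit are therefore given beside the main results on Alb.

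**Figure D1:**
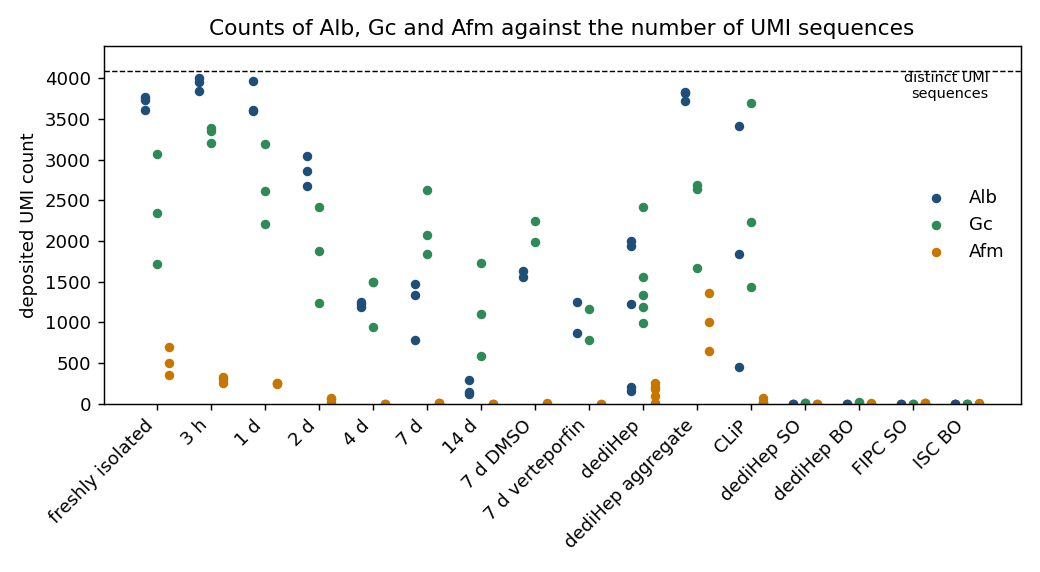
Deposited UMI counts of Alb, Gc and Afm in each library (points) of the 16 conditions, on a linear axis. The dashed line marks the number of distinct sequences of 6 bases, and Alb lies between 3602 and 4004 counts in FHs, at 3 h and at 1 d and between 3725 and 3834 in aggregates.

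Across conditions the members fell into different patterns. Alb and Gc were present in every library of hepatic origin in monolayer or aggregate culture and were at or near 0 in organoids. Afm almost vanished from hepatocytes between 2 and 4 d, was present in dediHeps and was back at the level of FHs in aggregates. Afp ran the other way, with no count in FHs and its highest levels in CLiPs. These levels are CPM with TMM factors over all 49 libraries (0.604 to 0.678 in FHs). Each transcript is counted once at its 3′ end, so that counts do not scale with transcript length.

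**Figure D2:**
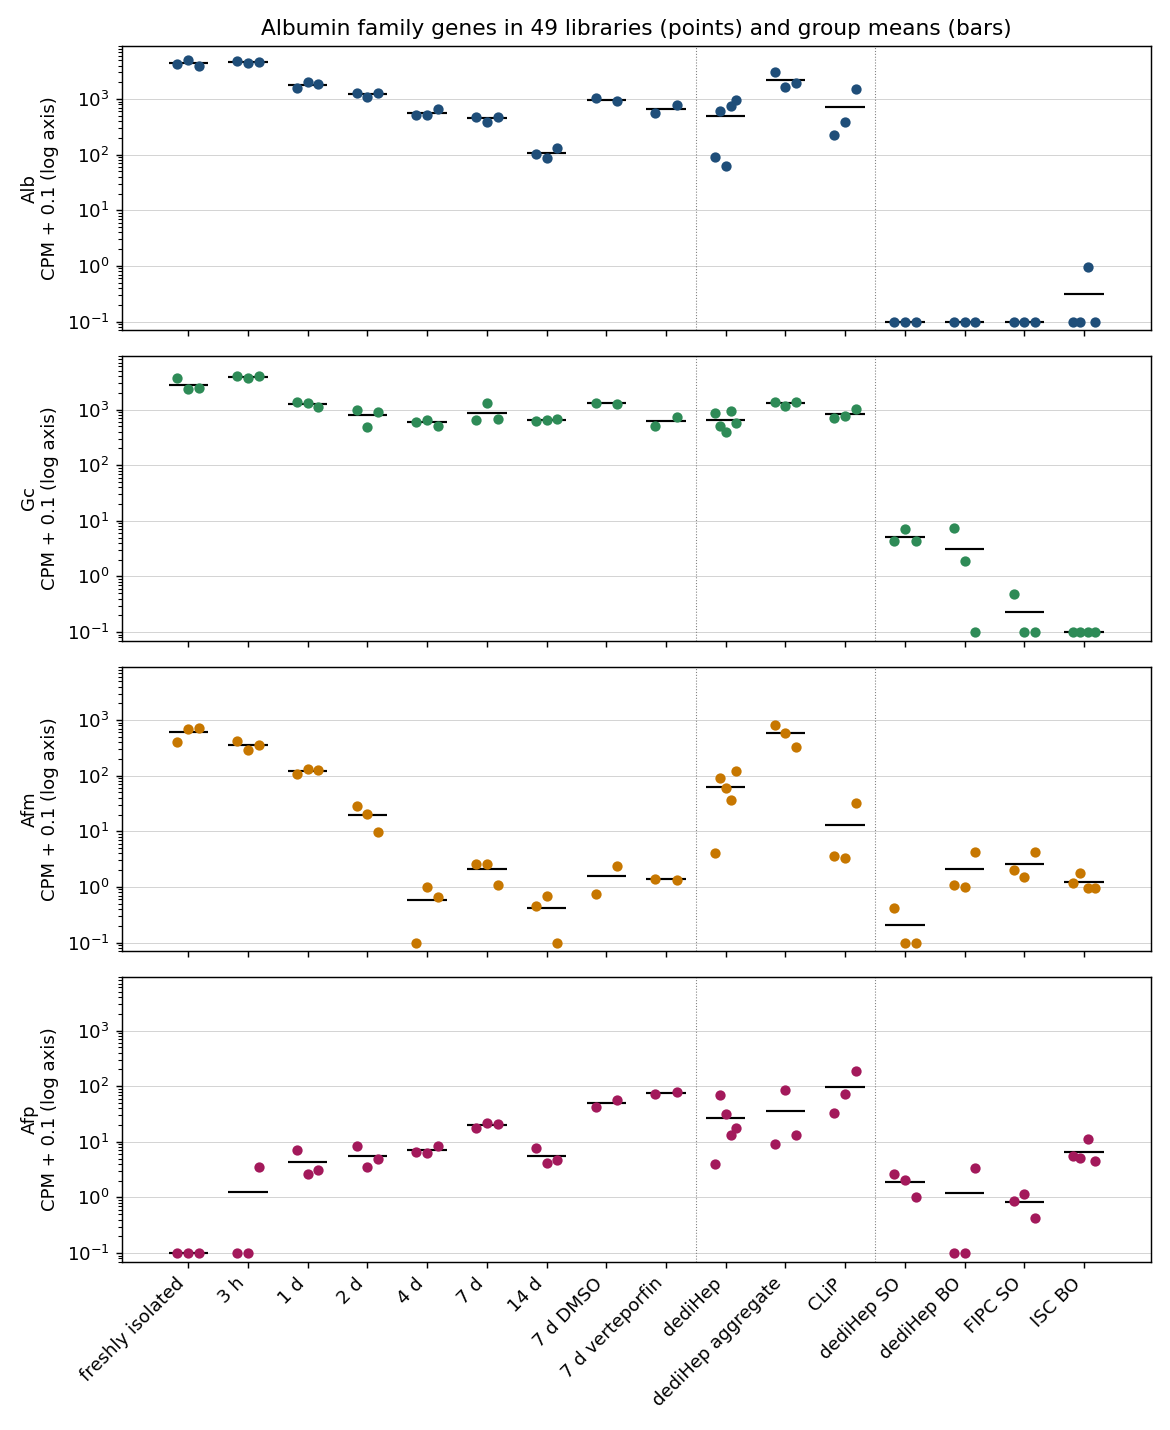
Levels of Alb, Gc, Afm and Afp in 49 libraries (points) with group means (bars), as CPM + 0.1 on a log axis. In the bottom panel Afp is at 0 in the 3 FH libraries and reaches 33.5 to 185 CPM in CLiPs, whereas Alb in the top panel is at 0 in all dediHep-SO, dediHep-BO and FIPC-SO libraries.

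The time course asked how each member changed as hepatocytes adapted to monolayer culture. Genes past an FDR of 0.1 and an absolute log2 fold change of 2 in the quasi-likelihood test of edgeR are termed called. At 3 h 0 of 4 members were called, against 6.91% of all genes tested, with 2 of 4 at an unadjusted p under 0.05 and 0 called by DESeq2. At 1 d and at 2 d, 2 of 4 were called, against 17.4% and 21.3% of all genes. At 4 d all 4 were called (23.8% of all genes), at 7 d 3 (25.9%) and at 14 d all 4 (29.5%). In every such set Afp was the member that was higher, and the rest were lower. With no count in FHs, Afp passed the count filter through the cultured groups alone, so that its direction was fixed by the filter.

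Alb, the member with the highest mean in FHs, at 3 h, 1 d and 2 d but below Gc from 4 d on, stood at 4256, 5107 and 3894 CPM in FHs and at 4898, 4418 and 4597 CPM at 3 h, and these ranges overlapped. At 1 d it was at 1562, 2000 and 1837 CPM, although its counts still overlapped those of FHs. It was at 1257, 1109 and 1303 CPM at 2 d. Alb then fell to 509, 521 and 675 CPM at 4 d, which is -3.03 ± 0.25 (SE) on the log2 scale (edgeR FDR = 1.83e-09). It was at 473, 388 and 481 CPM at 7 d and at 102, 86.8 and 132 CPM at 14 d, the lowest of the time course, with log2 fold changes of -3.37 ± 0.25 and -5.38 ± 0.28. No library of 4 to 14 d overlapped the FHs. Corrected for the UMI limit, the log2 fold changes of Alb were -2.48 at 2 d, which was called, -4.13 at 4 d and -6.66 at 14 d. Without FH replicate 3 the value at 2 d was -2.002 and called, and that at 3 h was -0.03 instead of 0.05.

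Gc, the vitamin D carrier, fell less. It was at 3625, 2354 and 2423 CPM in FHs and at 4081, 3694 and 3931 CPM at 3 h, where the difference was not called (log2 fold change 0.46 ± 0.29, edgeR FDR = 0.318). It stood at 1384, 1317 and 1126 CPM at 1 d and at 997, 482 and 912 CPM at 2 d. At 4 d it was called at 607, 654 and 516 CPM with -2.31 ± 0.31 (SE). At 7 d it was at 649, 1310 and 677 CPM and was not called (-1.74), which changed without replicate 2 of that group (-2.13). At 14 d it was at 618, 650 and 679 CPM with a called log2 fold change of -2.12 ± 0.31. All libraries from 1 d on lay below all FHs, though without TMM factors 7 d replicate 2 (1461 CPM) lay above FH replicate 2 (1421 CPM). From 2 d on Gc was near the fold threshold. Its call at 14 d was lost without FH replicate 1 (-1.90), while at 2 d it was gained without replicate 1 of that group (-2.08) or with the correction for the UMI limit (-2.02).

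Afm, the vitamin E carrier, showed the steepest fall. Its counts in FHs were 348, 497 and 694, or 411, 680 and 717 CPM. It stood at 417, 285 and 356 CPM at 3 h and at 105, 129 and 127 CPM at 1 d, when it was called with -2.42 ± 0.38 (SE). At 2 d it was at 28.9, 20.6 and 9.74 CPM with a called log2 fold change of -5.00 ± 0.43. Each of these groups from 1 d on lay below the one before it. At 4 d, 0, 2 and 1 counts remained, and the ratio of FHs to this group over pooled counts was 1321 (95% counting interval 451 to 6414). There were 7, 5 and 3 counts at 7 d and 1, 1 and 0 at 14 d, when the ratio was 1625 (449 to 13429). At these counts the 4, 7 and 14 d groups cannot be ordered firmly.

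Afp, the fetal member, had 0 counts in all 3 FH libraries, which allows 1.18 CPM over the group. At 3 h it had 3 counts in 1 of 3 libraries. It was detected in every library from 1 d on, at 6.94, 2.52 and 3.05 CPM at 1 d, 8.26, 3.49 and 4.87 CPM at 2 d and 6.51, 6.14 and 8.23 CPM at 4 d. At 7 d it reached 17.6, 21.9 and 21.2 CPM, above every other library of the time course. At 14 d it was back at 7.50, 4.10 and 4.59 CPM, within the range of 1 to 4 d. Over pooled counts and against the limit that 0 counts in FHs allow, Afp was at least 3.66-fold higher at 1 d, 17.1-fold higher at 7 d and 5.05-fold higher at 14 d. The edgeR test called it at each time from 1 d (FDR 0.00532 at 1 d, 2.08e-05 at 7 d).

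**Figure D3:**
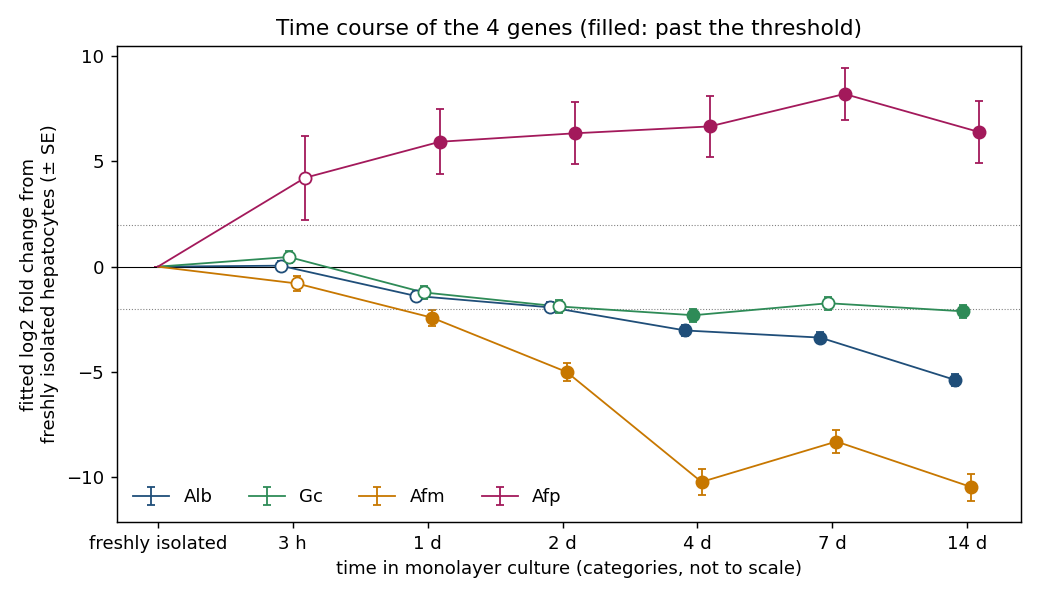
Fitted log2 fold changes from FHs (± SE) of the 4 members at 6 times in monolayer culture, with filled points for called changes and dotted lines at 2 and -2. Afm falls to -10.2 at 4 d, Alb falls stepwise to -5.38 at 14 d, Gc lies between -1.74 and -2.31 from 2 d on and Afp rises, with a size that depends on the model because FHs hold 0 counts of it.

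The comparison of dediHeps with FHs asked what of the family the expandable cells kept. All 4 members were called, against 25.7% of all genes tested. Afp, with no count in FHs, passed the count filter through dediHeps alone, so that its direction was fixed by the filter. Alb was at 89.5, 618, 62.9, 764 and 947 CPM in the 5 dediHep cultures, lower by -3.29 ± 0.74 on the log2 scale (SE, edgeR FDR = 0.00488). Cultures 1 and 3 were the low ones, and all 5 lay below all FHs. Corrected for the UMI limit, the log2 fold change of Alb was -4.28. Gc was at 869, 497, 402, 956 and 565 CPM, a narrower spread, with -2.21 ± 0.36, and this call was lost without FH replicate 1 (-1.97). After the UMI correction the log2 fold change of Gc was -2.48. Afm was at 3.92, 92.0, 60.4, 36.7 and 123 CPM with -3.38 ± 0.70. Culture 1, low in Alb, was also lowest in Afm and in Afp. Afp was at 3.92, 69.9, 31.1, 13.4 and 17.5 CPM. Over counts pooled from the 5 cultures it was at least 23.2-fold higher than in FHs, where it had no count. That bound does not hold for each culture.

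dediHeps were also compared with hepatocytes after 14 d, the latest point of the time course. Here 2 of 4 members were called, both higher in dediHeps, against 5.93% of all genes. Afm, with 1, 1 and 0 counts at 14 d, passed the count filter through dediHeps alone, so that its direction was fixed by the filter. Afm was higher in each dediHep library than in each 14 d library, by 170-fold over pooled counts (95% counting interval 46.9 to 1407, edgeR FDR = 0.00674). Afp was higher by 2.25 ± 0.79 on the log2 scale (SE, edgeR FDR = 0.0939), but the groups overlapped and the call was lost without any of the 3 libraries of 14 d or without dediHep replicate 2 or 3 (FDR 0.138 to 0.305). Alb was higher by 2.16 ± 0.80, just short of the threshold (edgeR FDR = 0.107). Alb was called by DESeq2 (2.14, FDR = 0.0195), so that DESeq2 called 3 members, without the filter on low counts (FDR = 1.84e-07) and with all 49 libraries in a single fit (FDR = 0.0105), but not with the UMI correction (FDR = 0.101) or the replicate block (0.43, FDR = 0.702). It was also called without dediHep replicate 1 (2.43) or 3 (2.44). Gc had the same level in the main estimate, with a log2 fold change of -0.02 ± 0.31, and its sign turned in 7 alternatives (0.01 to 0.11).

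Aggregation, which the study used to bring dediHeps back toward hepatocytes, was followed within cultures. Afm rose in each of the 3 cultures sampled in both states, from 3.92 to 813 CPM in culture 1, from 92.0 to 594 CPM in culture 2 and from 36.7 to 332 CPM in culture 4. Alb went from 89.5 to 3009 CPM in culture 1, from 618 to 1665 CPM in culture 2 and from 764 to 1943 CPM in culture 4. These ratios of Alb, 33.6, 2.70 and 2.54, became 83.1, 6.34 and 5.35 after the UMI correction. All aggregates were above all dediHeps for both genes. The low Alb and Afm of culture 1 as a monolayer did not carry over, since its aggregate was the highest of the 3 for both.

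Over the groups, 2 of 4 members were called between aggregates and dediHeps, against 9.51% of all genes. The log2 fold change of Afm was 3.21 ± 0.71 (SE, edgeR FDR = 0.0163), and this call held without any 1 library. That of Alb was 2.18 ± 0.73 (edgeR FDR = 0.0686), or 3.296 after the UMI correction. The call of Alb was lost without dediHep replicate 1 (1.90), 2 (2.26) or 3 (1.89) and without aggregate replicate 1 (1.87), 2 (2.36) or 3 (2.27). With the culture as a replicate block the log2 fold changes were 2.48 for Alb (FDR = 0.0442) and 4.10 for Afm (FDR = 0.0117), and both were called.

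Gc was at 1343, 1171 and 1343 CPM in aggregates, above each of the 5 dediHep libraries. Its log2 fold change of 0.98 ± 0.30 (SE, edgeR FDR = 0.0506) was under the fold threshold. Afp did not move in 1 direction, with 3.92 to 8.89 CPM in culture 1, 69.9 to 86.9 CPM in culture 2 and 13.4 to 13.2 CPM in culture 4. Its log2 fold change was 0.44 ± 0.86 (edgeR FDR = 0.747) and turned to -1.26 without aggregate replicate 2. Culture 2 was the highest in Afp in both states.

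Against FHs, 1 of 4 members was called in aggregates, Afp, against 16.6% of all genes. Afp passed the count filter through aggregates alone, so that its direction was fixed by the filter and its call cannot be set against that share. Over pooled counts Afp was at least 36.6-fold higher than in FHs, but 200 of its 237 counts were in aggregate replicate 2. Replicates 1 and 3, at 8.89 and 13.2 CPM, lay below that bound. Afm was at 813, 594 and 332 CPM in aggregates and 411, 680 and 717 CPM in FHs, overlapping groups that differed by -0.14 ± 0.40 on the log2 scale (SE, edgeR FDR = 0.824). The sign of this difference turned without aggregate replicate 3 (0.21) and with the UMI correction (0.03). Without TMM factors the mean level of Afm was 543 CPM in aggregates and 381 CPM in FHs, the other order than with them (580 and 602 CPM). Alb and Gc remained below all FHs, by -1.10 ± 0.33 and -1.23 ± 0.32 on the log2 scale, with FDRs of 0.0279 and 0.0151 but short of the fold threshold. After the UMI correction these were -0.95 (edgeR FDR = 0.0640) for Alb and -1.27 (FDR = 0.0414) for Gc. Without TMM factors Alb of aggregate replicate 1 (2735 CPM) lay above that of FH replicate 3 (2475 CPM).

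**Figure D4:**
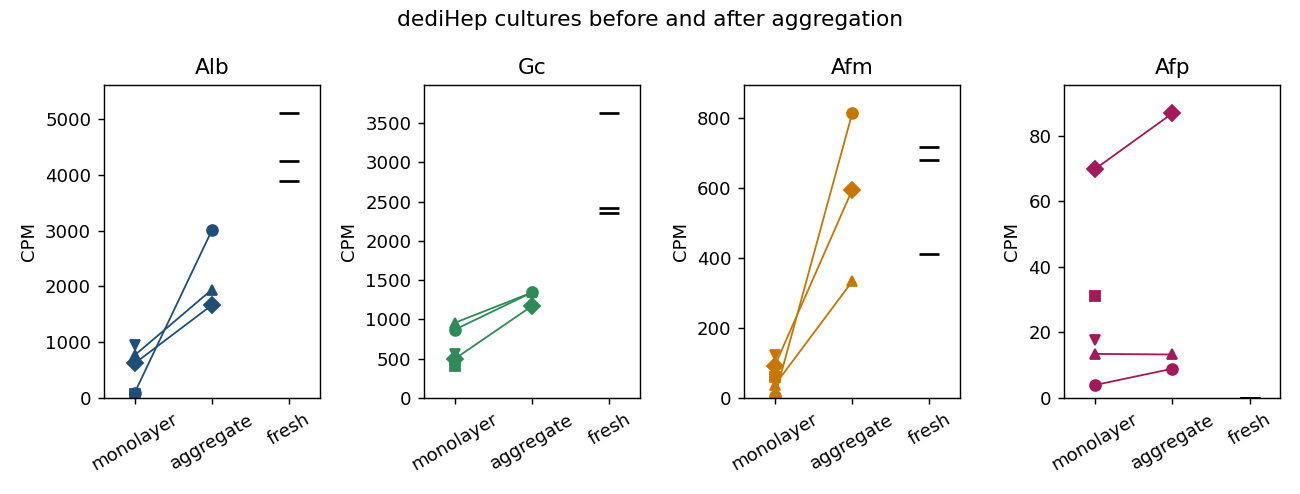
Levels (CPM, linear axes) of the 4 members in dediHep monolayers and aggregates, with 1 symbol per culture and lines joining the 3 cultures measured in both, beside the 3 FH libraries (black bars). Afm is higher in the aggregate of each of the 3 cultures, at 813, 594 and 332 CPM around the FH range of 411 to 717 CPM, Alb and Gc are also higher in each but below all FHs, and Afp stays highest in culture 2, at 69.9 and 86.9 CPM.

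CLiPs, hepatocytes dedifferentiated by another route, were set against dediHeps and FHs. Afp was at 33.5, 72.5 and 185 CPM in CLiPs, the highest mean of any condition (97.0 ± 78.7, SD, n = 3), but overlapped dediHeps. Alb was at 225, 388 and 1545 CPM, Gc at 708, 778 and 1012 CPM and Afm at 3.45, 3.15 and 32.6 CPM. CLiP replicate 3 was the highest in all 4 members by these values. After the UMI correction, however, Gc was higher in CLiP replicate 2 (1575 CPM) than in replicate 3 (1161 CPM). Between CLiPs and dediHeps 0 of 4 members were called by edgeR or DESeq2, with 1 at an unadjusted p under 0.05, against 3.04% of all genes called. The log2 fold changes were 1.87 ± 0.77 (SE) for Afp (edgeR FDR = 0.250), 0.59 ± 0.88 for Alb, 0.37 ± 0.33 for Gc and -2.24 ± 1.05 for Afm. That of Alb was 1.15 after the UMI correction and turned to -0.68 without CLiP replicate 3.

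Against FHs, 3 of 4 members were called in CLiPs, with 24.5% of all genes called. Afp, with no count in FHs, passed the count filter through CLiPs alone, so that its direction was fixed by the filter. Afp was at least 77.6-fold higher over pooled counts, a bound that does not hold for each library. Afm was lower by -5.48 ± 0.99 (SE, edgeR FDR = 0.00349) and Alb by -2.56 ± 0.75 (FDR = 0.0314) on the log2 scale. The call of Alb was lost without CLiP replicate 1 (-2.09, FDR = 0.106). Gc was lower by -1.69 ± 0.48 and not called.

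Verteporfin was compared with DMSO at 7 d with 2 libraries each. Gc was at 506 and 719 CPM with verteporfin and at 1313 and 1259 CPM with DMSO, or -1.04 ± 0.22 on the log2 scale (SE, edgeR FDR = 0.168). For Gc the FDR was 0.0269 by DESeq2, 0.000155 without the filter on low counts and 0.000313 with the replicate block, with log2 fold changes of -1.05 to -1.07, short of the fold threshold of 2. With the UMI correction the log2 fold change of Gc was -1.34 (edgeR FDR = 0.123), and with all 49 libraries in a single fit its FDR was 1. Alb was at 564 and 777 CPM against 1026 and 916 CPM, with -0.51 ± 0.22. Afp was at 72.1 and 79.8 CPM against 41.5 and 56.5 CPM, with 0.66 ± 0.29 (edgeR FDR = 0.536). For each of these 3 genes the libraries of the groups did not overlap, but 0 of the 3 tested members were called by edgeR or DESeq2, against 0.269% of all genes, and 3 had an unadjusted p under 0.05. Afm, with 2 and 2 counts against 4 and 1, was too low to be tested. DMSO cultures were above the 7 d cultures without it in Alb and Afp, a difference that was not tested.

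In organoids Alb was all but absent, and Gc and Afm had few counts. Afp was also low in dediHep-SOs, dediHep-BOs and FIPC-SOs. In ISC-BOs, however, the mean level of Afp lay between those of hepatocytes at 2 d and at 4 d. Alb had 0 counts in every library of dediHep-SOs, dediHep-BOs and FIPC-SOs, and 2 counts in 1 of 4 ISC-BO libraries. Between dediHep-SOs and dediHeps all 4 members were called, all lower in organoids, against 8.76% of all genes. All 4 passed the count filter through dediHeps, so that their direction was fixed by the filter. Over pooled counts Alb was at least 1146-fold lower than in dediHeps. Gc was lower by -7.02 ± 0.49 (SE, edgeR FDR = 1.27e-05) and Afp by -3.82 ± 0.90 (FDR = 0.0196) on the log2 scale. Afm had 1 count in 3 dediHep-SO libraries, 461-fold below dediHeps over pooled counts (95% counting interval 82.5 to 18232). Within culture 1 Afp had 7 counts as a monolayer and 8 as SOs, whereas it went from 103 to 4 in culture 3 and from 139 to 2 in culture 2. With the culture as a replicate block all 4 stayed called.

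A trace of Gc remained in organoids made from dediHeps. It had 13, 14 and 9 counts in dediHep-SOs and 15, 4 and 0 in dediHep-BOs, against 1, 0 and 0 in FIPC-SOs and 0 in all 4 ISC-BO libraries. All 3 dediHep-SOs were above all FIPC-SOs, at 4.18, 6.95 and 4.16 CPM against 0.390, 0 and 0. Gc was the single member tested between dediHep-SOs and FIPC-SOs and was called, with a ratio over pooled counts of 42.2 (95% counting interval 7.10 to 1711, edgeR FDR = 0.00493), against 8.91% of all genes. It passed the count filter through dediHep-SOs alone, so that its direction was fixed by the filter and its call cannot be set against that share. In dediHep-BOs Gc was at least 8.37-fold above ISC-BOs, but it was too low for the main test and 1 of 3 libraries had none.

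Afp was detected in intestinal organoids. ISC-BOs had 10, 12, 26 and 10 counts, or 5.41, 5.02, 11.02 and 4.37 CPM, and FIPC-SOs 0.779, 1.05 and 0.321 CPM. These groups did not overlap, and the adult organoids were the higher, by a log2 difference of FIPC-SOs against ISC-BOs of -3.07 ± 0.60 (SE, edgeR FDR = 0.00603). It was the single member tested there, and 6.62% of all genes were called. It passed the count filter through ISC-BOs alone, so that its direction was fixed by the filter. dediHep-BOs had 0, 0 and 8 counts. Against ISC-BOs this was not called (-2.39 ± 0.86, edgeR FDR = 0.130, 3.05% of all genes called), with 1 of 1 tested members at an unadjusted p under 0.05 and called by DESeq2. Without dediHep-BO replicate 3 it was called at -6.84, and without ISC-BO replicate 4 at -2.53. Here too Afp passed the count filter through ISC-BOs alone, so that its direction was fixed by the filter. Without replicate 3 the dediHep-BOs hold no count of it.

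Afm had 2 to 10 counts in each dediHep-BO library, 4 to 13 in FIPC-SOs and 2 to 4 in ISC-BOs. Between dediHep-BOs and dediHep-SOs none of the 4 members had enough counts for the test, which called 11.3% of all genes. Against FHs, 3 of 3 tested members were called and lower in dediHep-SOs (29.2% of all genes), dediHep-BOs (27.7%), FIPC-SOs (30.3%) and ISC-BOs (28.1%), and Afp was not tested. Alb, Gc and Afm passed the count filter through FHs alone, so that their direction was fixed by the filter. Against the limit for FHs, Afp over pooled counts was at least 5.54-fold higher in ISC-BOs and 1.63-fold higher in dediHep-SOs. The same ratio was 1.01 in dediHep-BOs and 0.597 in FIPC-SOs. Alb was at least 10599-fold lower in dediHep-SOs than in FHs, at least 9776-fold lower in dediHep-BOs and at least 12413-fold lower in FIPC-SOs.

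Ordered by mean level, Alb ran from 3 h (4638 ± 242 CPM, SD) and FHs (4419 ± 622) through aggregates (2206 ± 709) and 1 d (1800 ± 221) to 14 d (107 ± 22.9) and the organoids. For Alb 10 of 15 neighbours in this order overlapped in their libraries, and FHs stood apart from aggregates, 1 d from 2 d, 2 d from DMSO at 7 d, 7 d from 14 d and 14 d from ISC-BOs. Without TMM factors FHs and aggregates overlapped. With the UMI correction Alb was at 10615 ± 433 CPM at 3 h, 8552 ± 1301 in FHs and 5087 ± 1504 in aggregates. The order of Gc began with 3 h (3902 ± 195) and FHs (2801 ± 715), apart from each other and from the rest, and the 10 groups from DMSO at 7 d (1286 ± 38.2) to 4 d (592 ± 70.4) each overlapped the next. With the UMI correction Gc of FH replicate 1 (5134 CPM) lay above that of 3 h replicate 2 (4967 CPM). Without TMM factors FHs overlapped both 3 h and 7 d in Gc. The order of Afm began with FHs (602 ± 167), aggregates (580 ± 240) and 3 h (353 ± 66.1), each overlapping the next, and 3 h stood apart from 1 d (120 ± 13.0). For Afp, CLiPs overlapped verteporfin at 7 d (76.0 ± 5.44), which stood apart from DMSO (48.99 ± 10.6). Below these came aggregates (36.3 ± 43.8), dediHeps (27.2 ± 25.8) and 7 d (20.3 ± 2.32), the last apart from 4 d (6.96 ± 1.12).

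The make-up of the family changed accordingly. Alb was 51.3 to 62.7% of the summed counts of the 4 genes in FHs, 22.6 to 41.4% at 7 d and 11.7 to 16.2% at 14 d, when Gc made up 83.3 to 87.7%. These shares of Alb in FHs are 59.0 to 78.2% after the UMI correction. Afm made up 4.95 to 10.2% in FHs and 9.16 to 16.9% in aggregates, or 2.47 to 5.20% and 4.46 to 9.49% after the correction. Afp was at most 6.67% in any library of CLiPs, the hepatic group with its highest level, or 3.88% after the correction.

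As a description over the 16 condition means on the log2(CPM + 1) scale, Alb and Gc went together (Pearson r = 0.97, Spearman rho = 0.88). Alb and Afm were less alike (0.63 and 0.71), and Afp followed none (0.35 and 0.14 with Alb, 0.35 and 0.12 with Gc, -0.13 and -0.16 with Afm). The zeros of the 4 organoid groups enter each of these values. Of 12782 genes, those most like Alb were Fgb (r = 0.99) and Fga (0.99), which encode fibrinogen chains, and Gm8893 (0.99). Those most like Gc were Fgb (0.99), Ahsg (0.98), which encodes the plasma protein fetuin-A, and Fga (0.98). Those most like Afm were Ttc36 (0.96), Prodh2 (0.96), an enzyme of hydroxyproline breakdown, and Gnmt (0.95), the glycine N-methyltransferase of liver. For Afp they were Snx12 (0.90), Cdipt (0.86) and Elob (0.85), which are widely expressed genes. By rank correlation 2 of these 3 stayed among the first 3 for Afp, 1 for Afm and 0 for Alb and Gc.

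The regulators known to act on these genes were read from the same fits. Hnf4a encodes an activator of liver genes including Alb, and Zbtb20 and Zhx2 encode repressors that keep Afp off in the adult liver. In dediHeps against FHs the log2 fold changes were -0.85 ± 0.35 for Hnf4a (SE, edgeR FDR = 0.0744), -1.77 ± 0.47 for Zbtb20 (FDR = 0.0119) and -0.90 ± 0.67 for Zhx2, none called. Zbtb20 was at 1009 CPM in FHs, 319 in dediHeps, 359 in aggregates and 28.3 in ISC-BOs, and was called lower in each of the 4 kinds of organoid than in FHs. Zhx2 was at 10.4 CPM in FHs and 2.15 at 14 d, where it was called lower. In aggregates against dediHeps the log2 fold changes of Hnf4a, Zbtb20 and Zhx2 were 0.91, 0.18 and 0.14, and in CLiPs against dediHeps -0.87, 0.47 and 1.00, none called.

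Of the 27 listed regulators 25 were tested between dediHeps and FHs. Of these, 10 were called, against 25.7% of all genes, 2 higher (Trp53, 2.69 ± 0.73, and Nr2f1, 3.31 ± 1.14) and 8 lower, led by Onecut1 (-5.96 ± 0.55) and Cebpa (-3.57 ± 0.42), both activators of hepatocyte genes. Their median log2 fold change was -1.42 beside 0.08 over all genes tested. In aggregates against dediHeps 3 of 22 were called, all higher (9.51% of all genes), among them Zhx3 (2.85) and Foxa3 (2.17), with a median of 0.51 beside -0.07. In CLiPs against dediHeps 1 of 24 was called (3.04% of all genes), Nr2f1 (-4.11), with a median of 0.17 beside -0.03.

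Genes that handle the ligands or take up the proteins changed in dediHeps against FHs in 7 of 7 tested of 12, against 25.7% of all genes. Ttpa (-9.44), the tocopherol transfer protein, and Fabp1 (-6.41), the liver fatty acid-binding protein, led the 5 that were lower. Vdr (8.12), the vitamin D receptor, and Dab2 (2.77), an endocytic adaptor, were the 2 that were higher. The median was -4.79 beside 0.08. In aggregates against dediHeps Fabp1 (3.59) and Fcgrt (3.63), a chain of the receptor that rescues albumin from degradation, rose and Vdr fell (-2.01). These were 3 of 5 tested, against 9.51% of all genes, with a median of 1.01 beside -0.07. In CLiPs against dediHeps 0 of 5 were called, against 3.04% of all genes, with a median of -0.19 beside -0.03.

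In the same comparisons, for which 25.7%, 9.51% and 3.04% of all genes were called, other plasma carriers and fetal liver transcripts were read. Other plasma carriers were lower in dediHeps than in FHs in 9 of 12 cases, led by Hrg (-10.5) and Serpina6 (-13.3), with a median of -3.47 beside 0.08. In aggregates 5 of 10 tested rose from dediHeps, led by Apoa2 (7.89) and Fetub (4.95), with a median of 1.73 beside -0.07. In CLiPs against dediHeps 0 of 10 were called (median 0.74). Fetal liver transcripts, a list without Afp, were higher in dediHeps than in FHs in 5 of 5 tested of 8, with Scd2 (6.81) and Igf2bp3 (9.45) first, and a median of 9.30 beside 0.08. In FHs 7 of these 8 had no count. Those of them that were tested passed the count filter through dediHeps alone, so that their direction was fixed by the filter. Their part of this count cannot be set against the share of all genes. In aggregates 1 of 5 rose, Igf2 (2.63), with a median of 0.15, and in CLiPs 2 of 5 were lower than in dediHeps, Igf2bp1 (-3.27) and Igf2bp3 (-3.08), with a median of -1.02.

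The cell type markers were read in the same comparisons, for which 25.7%, 9.51% and 3.04% of all genes were called. Hepatocyte markers were lower in dediHeps than in FHs in 10 of 10 cases, led by Pck1 (-13.6) and Cyp2e1 (-13.3), and 6 of 7 rose in aggregates from dediHeps, led by Asgr1 (8.75) and Ass1 (3.10). In CLiPs against dediHeps 0 of 5 were called, and the medians of these 3 comparisons were -9.58, 4.97 and 0.62 beside 0.08, -0.07 and -0.03 over all genes. Cholangiocyte markers were higher in dediHeps than in FHs in 4 of 5, led by Krt7 (10.1) and Spp1 (6.97). Krt19 (-3.10) and Prom1 (-3.09) fell in aggregates, 2 of 5 tested, and Krt19 (-3.49) was lower in CLiPs, 1 of 6, with medians of 6.97, -1.90 and -0.29. Intestinal markers Vil1 (11.2) and Cdx2 (9.36) were higher and Fabp2 (-7.11) lower in dediHeps than in FHs. Fabp2 (4.95) rose in aggregates, 1 of 3 tested, and Cdx2 (-9.91) was lower in CLiPs, 1 of 2, with medians of 9.36, 0.49 and -5.74. Markers of endothelial, macrophage and stellate cells were lower in dediHeps than in FHs in 6 of 6 tested, led by Clec4f (-8.54) and Dcn (-8.25) with a median of -8.84, and were too low to be tested in the other 2 comparisons. Their sum was 0.302 to 1.68 CPM in dediHeps, so that those tested passed the count filter through FHs alone, which fixed their direction.

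Genes beside the family on chromosome 5 were read in the same 3 comparisons, for which 25.7%, 9.51% and 3.04% of all genes were called. Of Slc4a4, Npffr2, Adamts3, Cox18, Ankrd17 and Rassf6, 3 were tested and 0 called in each, with medians of 0.38, 0.11 and -0.31. In dediHeps against FHs the log2 fold changes were 0.38 ± 0.43 for Slc4a4, -0.95 ± 0.33 for Cox18 and 0.58 ± 0.29 for Ankrd17 (SE). In aggregates against dediHeps they were -0.99, 0.64 and 0.11, and in CLiPs against dediHeps -0.31, -0.55 and -0.30. Ankrd17, next to Alb on its 5′ side, was at 139 CPM in FHs, 226 in dediHeps and 206 in dediHep-SOs, where Alb had no count. Npffr2, Adamts3 and Rassf6 were at or under 3.3 CPM in every condition. The antisense gene Gm43449 overlaps Afp, and Gm42109 overlaps the 3′ end of Afm. Gm43449 had 12 counts in FHs, where Afp had 0, and 0 in dediHeps and CLiPs. Gm42109 had 30 counts in FHs and 15 in aggregates, few beside those of Afm.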

How the data were processed

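RNA of 49 libraries was measured by CEL-seq2, which counts transcripts at their 3′ ends. The authors deposited 1 table of UMI counts per Ensembl gene, without normalization, and made it with the celseq2 pipeline. The submitters' processing notes name bcl2fastq 2.20, Bowtie2 2.3.1, HTSeq 0.6.0 and GRCm38. The annotation release is not given in the sources used here. Of 46078 identifiers 45143 matched a symbol of GENCODE M21. All columns were used.

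The members and all gene lists were chosen with earlier results of these data known. The named genes are the 4 members in every comparison, the 3 genes with the highest Pearson r to each member among those with at least 10 CPM in at least 1 condition, Hnf4a, Zbtb20, Zhx2 and the neighbours, and at most 2 called members of each list per direction, taken by p. A further gene of this rule is not reported here. Motifs were picked from textbook knowledge after the promoters were read.

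Calls come from edgeR 4.0.16 (R 4.3.3): TMM, filterByExpr (minimum count 10, minimum total 15), the quasi-likelihood test and Benjamini-Hochberg adjustment over all genes tested, with calls at FDR below 0.1 and a log2 change beyond 2 in either direction, as in the study's methods. A member or listed gene near 0 counts in a group could pass the filter only through the other group, which fixed its direction. FHs and the 6 time points shared a fit, and other comparisons used the libraries compared. Fold changes so carry the scaling of their own fit, and levels that of all 49 libraries. The SE is the log2 fold change divided by the root of F. Folds against groups at 0 set the pooled counts of the other group against 3 counts over the group, and ratios with 1 to 3 counts have exact 95% intervals. Intervals and floors cover counting error only. The UMI correction estimates the molecules that would fill the observed number of 6-base sequences if each drew a sequence at random; the UMI length was inferred from the highest count. The steps were tested on simulated data.

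Replicates differed by more than counting noise (chi-square per degree of freedom 6.29 to 74.5 over 54 pairs). Alternatives were RLE, DESeq2 1.42.0, no filter on low counts, all libraries in a single fit, the UMI correction, other thresholds, a replicate block and leaving out each library. Pairing was checked as the correlation of deviations from group means. dediHeps and aggregates of the same culture, shown by the sample codes, had r of 0.183 to 0.359, and dediHeps and dediHep-SOs of the same culture -0.511 to 0.0482. Other groups share only a replicate number. Protein sequences were not used here.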

Additional observations from a re-analysis of the deposited data

Results flagged for a closer look

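In groups of 4 to 10 libraries, a library far from the others was looked for with Dixon's test at the 95% level in the 7 sets of a member and a group that had unequal values. Chance alone would mark about 1 in 20 such sets, and 2 were marked, both in ISC-BOs replicate 3. Alb was at 0.847 CPM there, from 2 counts, and at 0 in the other 3 libraries. Afp was at 11.02 CPM there, from 26 counts, against 4.37 to 5.41 CPM in the others.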

How the results depend on the processing

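Of 490 log2 fold changes of members recomputed under other settings, 17 gained a call, 3 lost it and 4 turned sign, and of 457 with a library left out 7, 14 and 8 did. An FDR of 0.05 with a log2 fold threshold of 1 moved the members called to 4 at 1 d and 4 at 2 d against FHs, 1 for dediHeps against 14 d, 1 for aggregates against dediHeps and 3 for aggregates against FHs. In the same order, 3803 and 4384 of 12443 genes, 1034 of 11167, 1570 of 11265 and 2547 of 9544 were called. The UMI correction gave 4 at 2 d, with 2700 of 12443 genes called, and moved 16 of 64 levels by over 1 SD, and CPM without TMM moved 11. Without a filter on low counts 1 member was called between dediHep-BOs and dediHep-SOs, 2 between dediHep-SOs and FIPC-SOs and 2 between dediHep-BOs and ISC-BOs, and with all libraries in a single fit 1, 2 and 1, as well as 1 for CLiPs against dediHeps. Without the filter 2385 of 21279, 2052 of 21816 and 798 of 21106 genes were called in these comparisons. In the single fit it was 1953, 1558 and 495 of 14710 genes, and 1169 for CLiPs against dediHeps. DESeq2 called 1 between dediHep-BOs and ISC-BOs, with 349 of 11303 genes called. The causes were not tested beyond what each setting changes.

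With the replicate number as a block, though it pairs no libraries here, dediHeps against 14 d had 1 call and dediHep-BOs against ISC-BOs 1. Of all genes, 913 of 11167 and 424 of 11303 were called there. In no other comparison did the block move the number called by over 1.5 times, and with the culture as the block 2 members were called between aggregates and dediHeps and 4 between dediHep-SOs and dediHeps. Of all genes, 1252 of 11265 and 920 of 11470 were called with the culture block.

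Leaving out each library in turn gave 1 to 3 calls for dediHeps against 14 d, 1 to 2 for aggregates against dediHeps and 0 to 1 for dediHep-BOs against ISC-BOs. Log2 fold changes turned sign as follows. Gc between dediHeps and 14 d went from -0.02 to 0.0169 without the filter on low counts, 0.0135 with all libraries and 0.10 with the UMI correction, and ran from -0.186 to 0.11 with a library left out. Afm in aggregates against FHs turned to 0.0290 with the UMI correction and ran from -0.374 to 0.21 with a library left out (0.21 without aggregate replicate 3). Alb at 3 h ran from -0.0332 (without FH replicate 3) to 0.174. Alb in CLiPs against dediHeps ran from -0.68 (without CLiP replicate 3) to 1.00. Afp in aggregates against dediHeps ran from -1.26 (without aggregate replicate 2) to 1.12. Depth limits Afp in FHs and all members in organoids, and the 6-base UMI limits Alb and, to a lesser degree, Gc.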
